A study of Homo sapiens with 7 samples.

Results

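The proteasome genes of the human genome were examined in RUNX2 and H3K27ac ChIP-seq peak lists of KARPAS-45 and PER-117, human lines of T-cell acute lymphoblastic leukaemia (T-ALL). They were chosen by name, as the protein-coding RefSeq genes on chromosomes 1 to 22 and X whose symbol begins PSMA, PSMB, PSMC, PSMD, PSME, PSMF or PSMG followed by a digit. The rule gave 50 genes of 19974. It used no measured value, and 48 of the 50 encode proteasome subunits, assembly chaperones, activators or an inhibitor. The other two, PSMC3IP and PSME3IP1, fit the spelling but are named for a partner protein and are not subunits. Subunits under other symbols, such as ADRM1 and SEM1, are outside the rule.

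The study concerned RUNX2, a Runt-domain transcription factor, in immature and KMT2A-rearranged T-ALL. KARPAS-45 carries a KMT2A rearrangement and was grown in RPMI-1640 with 20% fetal bovine serum, while PER-117 was grown with 10%, so line and serum cannot be told apart. In each line chromatin was precipitated with a RUNX2 antibody (Cell Signalling Technology) and an H3K27ac antibody (Abcam), with no treatment named and 1 library per line and antibody, so each value below is 1 library and no difference between the lines has a replicate check. The 3 input libraries were not analysed here. H3K27ac was called at a gene end of 10 of 10 T-cell marker genes in the KARPAS-45 library and 9 of 10 in PER-117, with CD5 the one not called. It was called at 3 of 6 B-cell markers in either line and at 0 of 6 myeloid markers in either line. At erythroid markers it was called for 1 of 5 in KARPAS-45 (EPOR) and 2 of 5 in PER-117 (EPOR and HBA1), and at non-blood markers for 1 of 6 (COL1A1) and 0 of 6.

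The proteasome is the chamber in which cells degrade proteins tagged with ubiquitin. Its 20S core is a stack of rings, alpha subunits outside forming the gate and beta subunits inside carrying the proteases, and its 19S cap holds an ATPase ring that unfolds the substrate and non-ATPase subunits that bind and strip the ubiquitin chain. Dedicated chaperones assemble both parts, other activators can replace the cap, and cells of the immune system can exchange the catalytic beta subunits for inducible ones to make peptides for antigen presentation.

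A gene was counted as having RUNX2 or H3K27ac when a called interval came within 1 kb of the start or the end of its span. RUNX2 was at a gene end of 37 of the 50 genes in KARPAS-45 (74.0%, Wilson 95% interval 60.4 to 84.1%) and of 30 in PER-117 (60.0%, 46.2 to 72.4%). Over all protein-coding genes the shares were 48.3% in KARPAS-45 and 32.5% in PER-117. H3K27ac, a histone acetylation found where promoters and enhancers are in use, was at a gene end of 48 of the 50 in KARPAS-45 (96.0%, 86.5 to 98.9%) and of 46 in PER-117 (92.0%, 81.2 to 96.8%), beside 61.0% and 55.5% of all protein-coding genes in KARPAS-45 and PER-117. Nearly every proteasome gene thus had an H3K27ac call in both lists as deposited, and the intervals, which cover counting error over genes only, lay above the share over all genes for either mark. Some KARPAS-45 calls rested on weak regions, since that H3K27ac list reaches down to a −log10 q of 0.431 and the PER-117 list to 1.01. At a −log10 q of 2 or more 36 of the 50 stayed acetylated in KARPAS-45, beside 50.8% of all genes, and 46 in PER-117, beside 53.7%. The genes lost in KARPAS-45 were PSMB2, PSMB3, PSMB6, PSMB8, PSMB9, PSMG3, PSMC1, PSMC4, PSMC6, PSMD2, PSMD3 and PSMD14. With only the 5000 strongest RUNX2 peaks of each list, 2 of the 50 had RUNX2 in KARPAS-45 (4%, against 5.998% of all genes). The PER-117 list then held 4 of the 50 (8%, against 7.13%). Under this cut the higher RUNX2 share was thus lost in the KARPAS-45 list and came down close to that of all genes in PER-117. Among acetylated genes the proteasome share under this cut was the lower one in both lists, at 4.17% against 9.37% for KARPAS-45 and 8.70% against 12.5% for PER-117. With RUNX2 peaks at a −log10 q of 10 or more, 26 of the 50 had RUNX2 in KARPAS-45 (52%, against 29.8% of all genes). In PER-117 it was 13 of the 50 (26%, against 17.2%). The share over all 50 genes thus stayed the higher one under this milder cut. At the covered length of the PER-117 H3K27ac list, 14 of the 50 were acetylated in KARPAS-45, against 16.0% of all genes.

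Beside acetylated genes the RUNX2 shares lay closer to the background. RUNX2 was at 37 of the 48 acetylated proteasome genes in KARPAS-45 (77.1%, 63.5 to 86.7%), where 75.7% of all acetylated protein-coding genes had it. In PER-117 it was at 30 of 46 (65.2%, 50.8 to 77.3%), where 57.1% of acetylated protein-coding genes had it. Both background shares lie inside the interval of the proteasome genes, so in neither line was RUNX2 at these genes distinguishable from its share at acetylated genes in general. Ribosomal protein genes, another set of constantly used genes added after the data were seen, had higher RUNX2 shares. Among acetylated cytosolic ribosomal protein genes RUNX2 was at 83 of 88 (94.3%) in KARPAS-45 and 73 of 87 (83.9%) in PER-117. Among acetylated mitochondrial ribosomal protein genes it was at 63 of 75 (84.0%, 74.1 to 90.6%) in KARPAS-45 and 54 of 75 (72.0%, 61.0 to 80.9%) in PER-117. The cytosolic shares lay above the proteasome intervals and the mitochondrial ones inside them, and the differences were not tested.

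**Figure D1:**
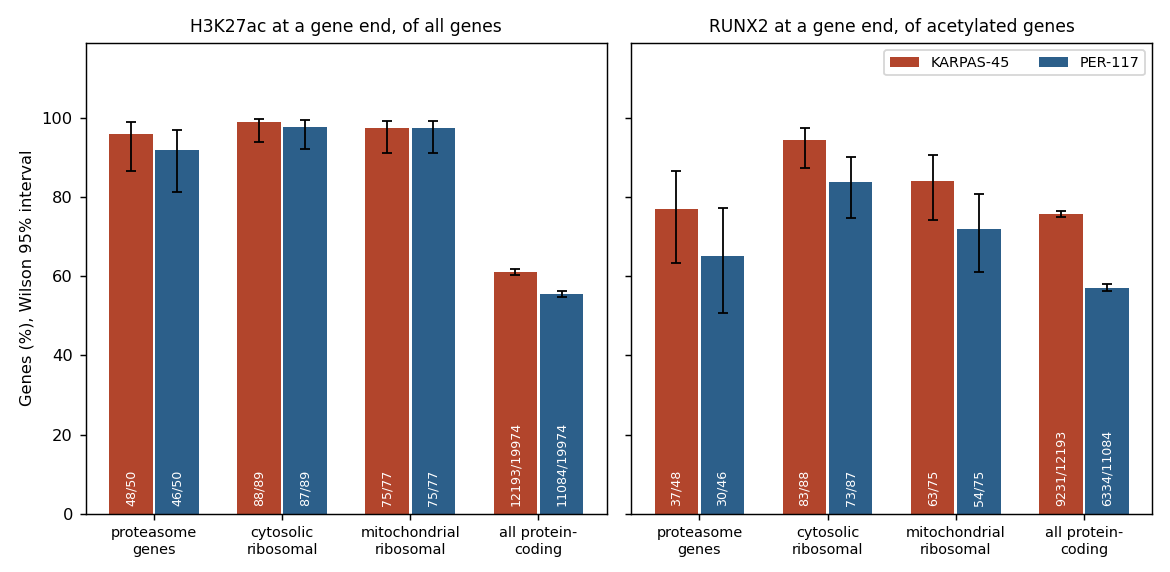
Share of genes with H3K27ac at a gene end (left) and, of the acetylated genes, with RUNX2 at a gene end (right), for the proteasome genes, both ribosomal protein sets and all protein-coding genes, in KARPAS-45 (red) and PER-117 (blue). Bars start at 0, error bars are Wilson 95% intervals over genes from 1 library each, and the figures inside the bars are the counts. The proteasome bars stand far above all genes for H3K27ac, and for RUNX2 among acetylated genes they stand at 77.1% and 65.2%, with intervals that hold the shares of all genes.

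H3K27ac was at a gene end in both lines for 46 of the 50 genes (92.0%), against 51.9% of all protein-coding genes. The 46 fell into 28 with RUNX2 in both lines (60.9%, against 54.5% of the 10359 protein-coding genes acetylated in both), 9 with RUNX2 in KARPAS-45 only (19.6%, against 26.9%), 2 with RUNX2 in PER-117 only (4.35%, against 4.59%) and 7 with RUNX2 in neither (15.2%, against 14.0%). The KARPAS-45 list is longer, with 42911 RUNX2 intervals against 21027 in PER-117. When the KARPAS-45 list was cut to the 21027 intervals of highest fold enrichment, it held 17 of the 50 proteasome genes, against 30 in PER-117, so the order of the lines turned. Over all genes the KARPAS-45 share under this cut was 27.6%. A gene with RUNX2 in 1 line only is therefore a gene called in that library and not in the other at an unknown depth. The absence of a call is not the absence of RUNX2.

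The peaks lay around or below the middle of their lists. The fold enrichment, a linear ratio that the authors' peak caller gave each peak and that was ranked within a list only, since the lists differ in length, had a median of 6.31 over the strongest gene-end peaks of the 37 genes in KARPAS-45, against 7.16 over all protein-coding genes with a peak. In PER-117 the medians were 5.25 over 30 proteasome genes and 5.80 over all genes. The median of the proteasome genes was thus the lower one in both lists, a difference that was not tested. The median proteasome peak stood above 49.2% of the whole KARPAS-45 list, while the median over all genes stood above 57.0%. In PER-117 the same positions were 43.1% for proteasome genes and 51.6% for all genes. Only PSMB8 of 37 in KARPAS-45 and PSMA3 and PSMC3 of 30 in PER-117 had a peak in the strongest 10% of the list, where 10.1% and 8.53% of all genes with a peak in KARPAS-45 and PER-117 had one.

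**Figure D2:**
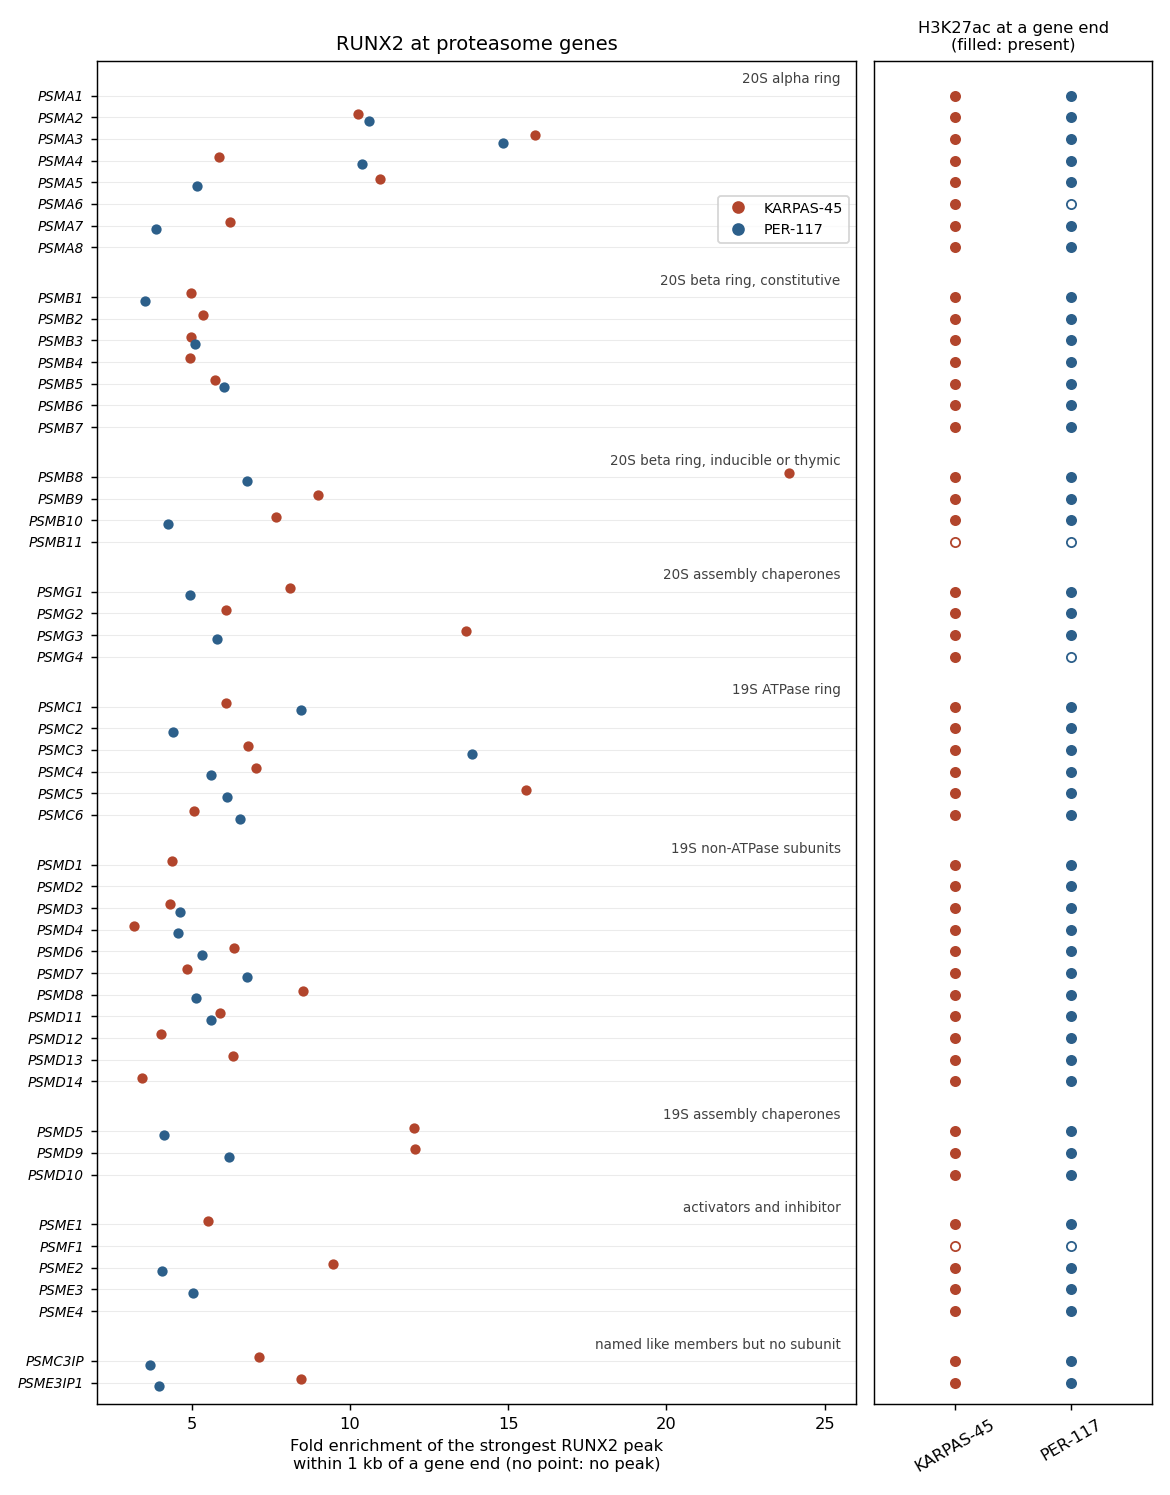
Fold enrichment (linear, horizontal axis) of the strongest RUNX2 peak within 1 kb of a gene end, for each of the 50 genes in KARPAS-45 (red) and PER-117 (blue), by role, with 1 library per point and no point where no peak was called. The right panel shows H3K27ac at a gene end (filled) or not (open). Alpha ring genes reach the high values in both lines, constitutive beta ring genes stay at or below 6.02, and the open circles are PSMB11 and PSMF1 in both lines and PSMA6 and PSMG4 in PER-117.

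Promoter sequences are given for some of the genes as examples, from RefSeq (GRCh38.p14), whose promoter table held 44 of the 50 genes and gave them 55 listed starts. The entries not found were PSMA7, PSMB1, PSMB6, PSMB7, PSMD4 and PSMG3. The first set holds the genes whose window, from 250 bases before to 50 after the start, contains the strongest RUNX2 summit of both lines and a RUNX core motif. These genes were picked for a core within 50 bp of the strongest summit of at least 1 line. The core was searched as TGTGGT or TGCGGT on both strands, read as ACCACA or ACCGCA where it lies on the opposite strand. Each is the 200 bases before the start, with 30 bases after it for PSMA3, read 5′ to 3′ along the gene, and capitals mark the core.
PSMA3 chr14:58244643-58244872 (plus strand): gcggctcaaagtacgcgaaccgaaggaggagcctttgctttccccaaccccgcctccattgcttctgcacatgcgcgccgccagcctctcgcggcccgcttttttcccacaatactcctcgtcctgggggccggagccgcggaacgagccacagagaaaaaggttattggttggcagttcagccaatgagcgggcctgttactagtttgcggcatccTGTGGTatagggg
PSMC5 chr17:63827231-63827430 (plus strand): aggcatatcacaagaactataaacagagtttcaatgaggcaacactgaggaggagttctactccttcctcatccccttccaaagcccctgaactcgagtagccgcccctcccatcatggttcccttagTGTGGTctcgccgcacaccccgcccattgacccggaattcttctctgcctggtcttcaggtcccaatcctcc
PSMD6 chr3:64023495-64023694 (minus strand): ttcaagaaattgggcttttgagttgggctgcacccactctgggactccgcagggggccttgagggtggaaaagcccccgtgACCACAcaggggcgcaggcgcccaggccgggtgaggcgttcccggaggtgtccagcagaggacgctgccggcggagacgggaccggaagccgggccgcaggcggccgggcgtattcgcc
PSMD9 chr12:121888590-121888789 (plus strand): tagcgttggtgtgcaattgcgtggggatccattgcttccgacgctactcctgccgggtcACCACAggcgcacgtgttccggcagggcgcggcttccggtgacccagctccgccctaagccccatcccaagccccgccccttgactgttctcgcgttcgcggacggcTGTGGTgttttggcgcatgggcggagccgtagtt
For comparison, PSMA2 and PSMC3, which with PSMA3 had the highest lower-of-both fold enrichment, held no core in the 300 bases searched, so nothing is in capitals.
PSMA2 chr7:42932175-42932374 (minus strand): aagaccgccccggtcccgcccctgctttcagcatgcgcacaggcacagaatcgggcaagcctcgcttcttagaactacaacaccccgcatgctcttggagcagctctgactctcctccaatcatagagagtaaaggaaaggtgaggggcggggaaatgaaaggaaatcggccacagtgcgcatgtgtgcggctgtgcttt
PSMC3 chr11:47426440-47426639 (minus strand): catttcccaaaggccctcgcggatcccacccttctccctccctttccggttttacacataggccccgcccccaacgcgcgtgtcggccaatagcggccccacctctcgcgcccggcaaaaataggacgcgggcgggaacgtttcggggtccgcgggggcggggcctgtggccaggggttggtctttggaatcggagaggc

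Positions are counted from 1 at the first transcribed base and from -1 before it. In PSMA3 the core lay at 18 to 23, with the KARPAS-45 summit at -13 and the PER-117 summit at 20, inside the core. In PSMC5 the core lay at -72 to -67, with the KARPAS-45 summit at -69, inside it, and the PER-117 summit at -147. In PSMD6 the core lay at -119 to -114, with summits at -86 in the KARPAS-45 library and -107 in PER-117. These cores were within 75 bp of the summit of either line, a closeness that follows from how the genes were picked. PSMD9 held a core at -141 to -136 and another at -34 to -29, with summits between them, the KARPAS-45 one at -103 and the PER-117 one at -98.

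As a group the proteasome promoters held a RUNX core no more often than other promoters. A core was found in 7 of the 55 promoter windows (12.7%, 6.30 to 24.0%), against 18.97% of the 22132 protein-coding promoters and 19.1% of promoters of genes acetylated in both lines. The remaining genes with a core were PSMB5, PSMD13 and PSMG1, with the core 114 bp or more from the strongest summit. With the TGTGGT form alone the shares were 10.9% (6 of 55) and 11.3% of all promoters. The promoters were also split by whether the strongest gene-end summit lay in the window, with no test of the difference. Where the strongest KARPAS-45 summit lay in the window, 6 of 21 proteasome promoters held a core (28.6%, 95% Wilson interval 13.8 to 49.96%), beside 28.0% of all such promoters. In PER-117 it was 4 of 14 (28.6%, 11.7 to 54.6%) beside 35.6%. With no such summit in the window the core was in 1 of 34 (2.94%, 0.521 to 14.9%) proteasome promoters in KARPAS-45, against 16.5% of all promoters, and in 3 of 41 (7.32%, 2.52 to 19.4%) in PER-117, against 17.1%. Promoters with a summit elsewhere are counted among those without. A match is a string of letters in the window, and the median GC content, which bears on how often such strings occur, was 62.0% in proteasome promoters, 62.3% in all and 64.7% in those of genes acetylated in both lines.

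Of 3 other strings, chosen after the data were seen, the first 2 were commoner in the proteasome promoters. The ETS-type core CCGGAA was in 25 of 55 windows (45.5%, 33.0 to 58.5%), against 21.2% of all promoters and 29.8% of those of genes acetylated in both lines. The string TGACNNNGC, the antioxidant response element through which NFE2L1 raises proteasome genes when the proteasome is inhibited, was in 15 of 55 (27.3%, 17.3 to 40.2%), against 13.8% of all and 14.8% of acetylated-gene promoters. For both strings the share over acetylated genes lay below the interval of the proteasome promoters. CCAAT, bound by NF-Y, was in 24 of 55 (43.6%, 31.4 to 56.7%), an interval that holds the 34.6% of all and 35.5% of acetylated-gene promoters. All were searched on both strands. Some of the 55 windows overlap, since they belong to 44 genes, so the intervals here and for the RUNX core count overlapping windows as separate. By gene, CCGGAA was in 24 of 44, against 3228 of the 8598 listed genes acetylated in both lines. TGACNNNGC was in 15 of 44 against 1649 of 8598, and CCAAT in 22 of 44 against 3727 of 8598.

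Gene-end RUNX2 summits lay near the starts, a closeness partly set by the 1 kb window that selects these peaks. Peaks in the interior of a gene are left out of these distances. The median distance from the strongest gene-end summit to the nearest listed start was 103 bp in KARPAS-45 over 33 proteasome genes, against 139 bp over 7979 protein-coding genes. In PER-117 it was 143.5 bp over 26 proteasome genes, against 212 bp over 5454. The summit was within 250 bp of a start for 23 of 33 proteasome genes in KARPAS-45 (69.7%, 52.7 to 82.6%, all genes 62.9%) and 17 of 26 in PER-117 (65.4%, 46.2 to 80.6%, all genes 54.3%). Distances were thus short in proteasome genes and in all genes alike. The summit lay upstream of the start for 23 of 33 in KARPAS-45 (69.7%, all genes 64.9%) and 16 of 26 in PER-117 (61.5%, all genes 57.0%). It stood inside an H3K27ac region for 36 of 37 genes in KARPAS-45 (97.3%, all genes 91.7%), with PSMA7 the exception, and for 29 of 30 in PER-117 (96.7%, all genes 92.2%), with PSMB1 the exception. Each of these shares of all genes lay inside the 95% Wilson interval of the proteasome genes. A few calls rested on the edge of the window: the strongest summits of PSMB1, PSMB10, PSMA7 and PSMG2 lay at 1003 to 1092 bp from the gene end in at least 1 line, with the interval reaching inside 1 kb.

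**Figure D3:**
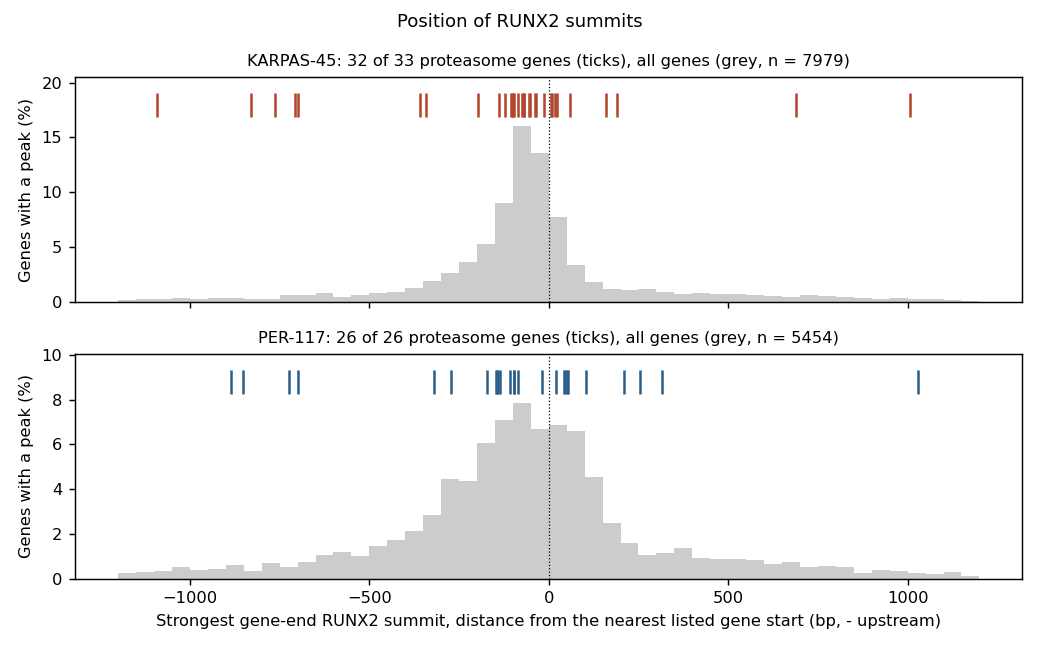
Distance (bp, negative upstream) from the nearest listed gene start to the strongest gene-end RUNX2 summit, for proteasome genes (ticks) and all protein-coding genes (grey, percent of genes with a peak per 50 bp), in KARPAS-45 (top) and PER-117 (bottom). Ticks crowd around 0 in both lines, which the 1 kb gene-end window partly sets. The one KARPAS-45 gene outside the axis is PSMB8, whose strongest summit lay 3366 bp downstream of its start.

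For the 28 genes bound in both lines the strongest peaks of both libraries overlapped in 23 (82.1%, 64.4 to 92.1%), beside 83.2% of the 5824 protein-coding genes bound in both. The summits were a median of 33 bp apart in these 23 and 77 bp over all 28. PSMD9 had the closest pair, 5 bp apart. PSMA7 had the most distant, 7494 bp apart, with the strongest peaks at opposite ends of the gene. A weaker KARPAS-45 peak of PSMA7, with a fold enrichment of 4.53, lay toward the same end as its PER-117 peak.

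Several of these peaks lay close to an end of a neighbouring gene as well, and binding at the proteasome gene and at the neighbour cannot be told apart. An end of another protein-coding gene lay within 1 kb of the strongest summit for 10 of 37 genes in KARPAS-45 (27.03%, all genes 30.1%) and 11 of 30 in PER-117 (36.7%, all genes 33.7%). The neighbours were MRPL32, a mitochondrial ribosomal protein gene, at PSMA2, TAP1, a peptide transporter gene of antigen presentation, at PSMB8 in PER-117 and PSMB9 in KARPAS-45, and TBP, the TATA-binding protein gene, at PSMB1. FTSJ3 adjoined the summit at PSMC5, PMPCB at PSMC2, BRWD1 at PSMG1, SIRT3 at PSMD13, HPD at PSMD9, RNF31 at PSME2, SS18L1 at PSMA7 in PER-117, RETREG3 at PSMC3IP and RSPRY1 at PSME3IP1.

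The alpha ring, whose tails form the gate of the core, had RUNX2 at 5 of 8 genes in both lines, with the same 5 genes in either list, and H3K27ac at 8 of 8 in KARPAS-45 and 7 of 8 in PER-117. Its bound genes had a median fold enrichment of 10.3 in the KARPAS-45 list and 10.4 in PER-117, the second highest of the role classes in KARPAS-45 and the highest in PER-117. PSMA3 (chr14:58244843-58272004) had 15.8 in KARPAS-45 and 14.8 in PER-117, above 88.5% and 92.4% of its list. PSMA3 was the one gene kept in both lines when each list was cut to its 5000 strongest peaks.

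PSMA2 (chr7:42916861-42932174) had 10.3 in KARPAS-45 and 10.6 in the PER-117 list, with summits 196 bp and 272 bp upstream of the start. PSMA4 (chr15:78540405-78552417) had 5.87 in KARPAS-45 and 10.4 in PER-117. Both genes were thus bound at the start in either line. PSMA5 had 10.9 in the KARPAS-45 list and 5.17 in PER-117, and PSMA7, with 6.21 and 3.89, was the weakest bound alpha gene in PER-117. PSMA1, PSMA6 and PSMA8 had no gene-end RUNX2 in either line, and their interior peaks are described with the inner starts.

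The constitutive beta ring had RUNX2 at 5 of 7 genes in the KARPAS-45 library and 3 of 7 in PER-117. H3K27ac was called at 7 of 7 in both, in KARPAS-45 with a −log10 q below 2 at PSMB2, PSMB3 and PSMB6. All KARPAS-45 RUNX2 peaks of this ring stood below the middle of the list. The fold enrichments lay between 4.96 and 5.75 in KARPAS-45 and between 3.52 and 6.02 in PER-117. PSMB5, the chymotrypsin-like subunit and main target of proteasome inhibitors, had 5.75 in KARPAS-45 and 6.02 in the PER-117 list, with summits 18 bp and 316 bp downstream of a start. The structural subunit genes PSMB1 and PSMB3 were also bound in both lines, with 4.98 and 3.52 for PSMB1 and 5.00 and 5.10 for PSMB3 in KARPAS-45 and PER-117. PSMB2, with 5.35, and PSMB4, with 4.96, had a peak in KARPAS-45 only. PSMB6 and PSMB7, the caspase-like and trypsin-like subunits, had none at a gene end in either line. Of the constitutive catalytic subunit genes only PSMB5 therefore had a RUNX2 peak at a gene end.

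The inducible catalytic subunits, which interferon switches on, had RUNX2 at PSMB8, PSMB9 and PSMB10 in KARPAS-45 and at PSMB8 and PSMB10 in PER-117. PSMB8 (chr6:32840717-32844679), which replaces PSMB5, had the strongest gene-end peak of all 50 genes in KARPAS-45, 23.9, above 95.3% of the list, and it lay 36 bp from the 3′ end of the gene. At its 5′ end the KARPAS-45 peaks had 10.9 and 5.70. In PER-117 PSMB8 had 6.75 and 5.31, both at the 5′ end, and none at the 3′ end. The strongest summits of the lines were therefore at different ends of the gene, 4143 bp apart, while both lines had a summit 946 or 947 bp upstream of the start, toward TAP1.

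PSMB9 (chr6:32854192-32859851), which replaces PSMB6, had 8.98 in KARPAS-45, 76 bp upstream of its start, and no peak in PER-117, although it was acetylated in both. It was the strongest of the genes bound in KARPAS-45 only. PSMB10 (chr16:67934506-67936850), which replaces PSMB7, had 7.67 in the KARPAS-45 list and 4.26 in PER-117, with summits 1006 bp and 1028 bp downstream of the start. KARPAS-45 also had a PSMB10 peak of 4.96 at 51 bp upstream. PSMB11 (chr14:23042212-23044060), the beta subunit of thymic cortical epithelium, had neither RUNX2 nor H3K27ac in either line, at its ends or anywhere in its span.

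The chaperones that build the 20S core, PSMG1 to PSMG4, had RUNX2 at 3 of 4 in KARPAS-45 and 2 of 4 in PER-117. PSMG3, which works in a pair with PSMG4, had 13.7 in KARPAS-45 and 5.79 in PER-117. PSMG1, which pairs with PSMG2, had 8.11 in KARPAS-45 and 4.94 in the PER-117 list, at the end it shares with BRWD1. PSMG2 had 6.08 in the KARPAS-45 library and none in PER-117 at its gene ends. PSMG4 had none in either line at its ends. Of each chaperone pair, then, 1 partner was bound in both lines at a gene end and the other was not.

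The ATPase ring of the cap had RUNX2 at 5 of 6 genes in the KARPAS-45 library and 6 of 6 in PER-117. Of all acetylated protein-coding genes 75.7% had it in KARPAS-45 and 57.1% in PER-117. H3K27ac was called at 6 of 6 in both, in KARPAS-45 with a −log10 q below 2 at PSMC1, PSMC4 and PSMC6. The median RUNX2 fold enrichments of the ring were 6.78 in KARPAS-45 and 6.32 in PER-117. PSMC3 (chr11:47418775-47426439) had 6.78 in KARPAS-45 and 13.9 in PER-117, above 53.7% and 91.2% of its list, with summits within 53 bp of the start. PSMC5 (chr17:63827431-63832019) had 15.6 in KARPAS-45 and 6.12 in PER-117, above 88.1% and 55.8% of its list. The order of the ATPase genes by strength thus differed between the libraries.

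PSMC1 (chr14:90256553-90275429) had 6.07 in the KARPAS-45 list and 8.44 in PER-117, with summits 7 bp and 19 bp from the start. PSMC4 had 7.02 in KARPAS-45 and 5.60 in PER-117. PSMC6 had 5.08 in KARPAS-45 and 6.53 in the PER-117 list, with the strongest summits 700 and 725 bp upstream of the start. PER-117 also had a PSMC6 peak of 4.99 with its summit 4 bp from the start. PSMC2 was bound in PER-117 only, with 4.42, on the end it shares with PMPCB, and had H3K27ac in both lines, 7439 bp wide in the KARPAS-45 list and 1220 bp in PER-117.

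The non-ATPase subunits had RUNX2 at 10 of 11 genes in the KARPAS-45 library and 6 of 11 in PER-117, beside 75.7% and 57.1% of all acetylated genes. H3K27ac was called at 11 of 11 in both, in KARPAS-45 with a −log10 q below 2 at PSMD2, PSMD3 and PSMD14. The RUNX2 peaks of this class had the lowest median fold enrichment of the role classes in KARPAS-45, 4.61, and a median of 5.23 in PER-117. Bound in both lines were PSMD3, PSMD6, PSMD8 and PSMD11 of the lid scaffold, PSMD7, the partner of the deubiquitinase, and PSMD4, a ubiquitin receptor. PSMD8 was the strongest of the class in KARPAS-45, with 8.51 against 5.12 in PER-117. PSMD7 was the strongest in PER-117, where it had 6.75, against 4.84 in KARPAS-45. PSMD6 had 6.35 in KARPAS-45 and 5.34 in PER-117, PSMD11 had 5.90 and 5.60, and PSMD3 had 4.33 and 4.63.

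PSMD4 had the weakest peak of all the genes in KARPAS-45, 3.17, above 2.75% of the list, and 4.58 in PER-117. The genes bound in KARPAS-45 only were PSMD13 with 6.31, the base scaffold gene PSMD1 with 4.38, PSMD12 with 4.03 and PSMD14, the deubiquitinase that strips the ubiquitin chain, with 3.42. Apart from PSMD13 these were peaks weaker than at least 80% of that list. PSMD2, the other base scaffold gene, had no RUNX2 in either line. H3K27ac was called at PSMD2 in both, 2519 bp wide in KARPAS-45 and 1384 bp in PER-117. The KARPAS-45 call was weak, with a fold enrichment of 1.22 and a −log10 q of 0.725, against a −log10 q of 11.6 in PER-117.

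Of the chaperones of the 19S base, PSMD5 and PSMD9 were bound in both lines and PSMD10, the oncoprotein gankyrin, in neither. PSMD9 (chr12:121888790-121918297) had 12.1 in KARPAS-45 and 6.19 in PER-117. PSMD5 had 12.0 in KARPAS-45 and 4.13 in PER-117, above 80.9% and 21.8% of its list. In KARPAS-45 both stood above 80.9% of the list or more. PSMD10, on chromosome X, had H3K27ac in both, 2832 bp wide in KARPAS-45 and 1270 bp in PER-117.

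Among the activators and the inhibitor, the interferon-inducible subunits PSME1 and PSME2, which form a joint ring and are neighbours on chromosome 14, were both bound in KARPAS-45, with 5.51 for PSME1 and 9.48 for PSME2. In PER-117 only PSME2 was, with 4.06. PSME3, which forms the nuclear activator ring, was bound in PER-117 only, with 5.06 at 142 bp upstream. PSME4, the single-chain activator, had no RUNX2 in either line, with H3K27ac 7828 bp wide in KARPAS-45 and 3715 bp in PER-117. PSMF1, the proteasome inhibitor, had no gene-end call of either mark. Of the genes that are named like subunits, PSMC3IP, a meiotic recombination factor, had 7.12 in KARPAS-45 and 3.70 in the PER-117 list, and PSME3IP1, a partner of PSME3, had 8.44 and 3.95.

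Some genes without a gene-end call were called at a start inside the span. The ends of a RefSeq span are not the only starts, and the promoter table lists starts well inside the spans of PSMA1, PSMA6, PSMF1, PSMG2 and PSMG4. Within 1 kb of a listed start, RUNX2 was at 37 of 44 genes in KARPAS-45 (84.1%, 70.6 to 92.1%, all genes 50.5%) and 28 of 44 in PER-117 (63.6%, 48.9 to 76.2%, all genes 34.4%). H3K27ac was at a listed start of 43 of 44 in both lines, with 61.6% of all genes in the KARPAS-45 list and 57.1% in PER-117, and PSMB11 was the one without. Among those acetylated there, RUNX2 was at 37 of 43 in KARPAS-45 (86.0%, 72.7 to 93.4%, all genes 79.3%) and 28 of 43 in PER-117 (65.1%, 50.2 to 77.6%, all genes 59.1%). The background shares again lay inside both intervals.

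PSMA1 had its listed start 15510 bp inside the span, and RUNX2 there in both lines, with 8.19 in KARPAS-45 and 7.04 in the PER-117 list, at 394 bp and 263 bp upstream of the start. A stronger PSMA1 peak lay 118 kb upstream of that start, still inside the span, with 26.9 in KARPAS-45 and 9.10 in PER-117. PSMF1 had its second start 5339 bp inside the span, where KARPAS-45 had a RUNX2 peak of 4.43 and PER-117 none. H3K27ac covered that PSMF1 start in both lines, in a region of 1952 bp in KARPAS-45 and 1592 bp in PER-117. PSMF1 was thus acetylated at an inner start, with no call at its outer ends.

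At the PSMA6 starts KARPAS-45 had weak RUNX2 peaks, 3.95 and 3.80, and PER-117 none, inside H3K27ac regions 29622 bp and 10037 bp wide in KARPAS-45 and PER-117. Between 5308 and 5923 bp upstream both lines had a pair of RUNX2 summits in PSMA6, with 14.8 and 10.4 in KARPAS-45 and 4.001 and 7.29 in PER-117. PSMG4 had RUNX2 at its start in KARPAS-45 only, with 5.45, inside H3K27ac of 11039 bp in KARPAS-45, against 1386 bp in PER-117. PSMG2 had RUNX2 at its second start in both lines, with 7.02 in KARPAS-45 and 4.001 in PER-117. PSMG2, counted above as bound in KARPAS-45 only, was thus bound in both at the inner start.

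PSMA8, the alpha subunit known from the testis, had H3K27ac at its start in both lines, 2953 bp wide in the KARPAS-45 library and 770 bp in PER-117. A RUNX2 peak lay 33.9 kb inside PSMA8, with 23.8 in KARPAS-45 and 11.8 in PER-117, acetylated in both. With the whole span and 1 kb on either side counted, RUNX2 in neither line remained for PSMB6, PSMB11, PSMD2, PSMD10 and PSME4. PSMB7 had interior RUNX2 in KARPAS-45 only, with 8.01 and 4.003, outside H3K27ac.

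**Figure D4:**
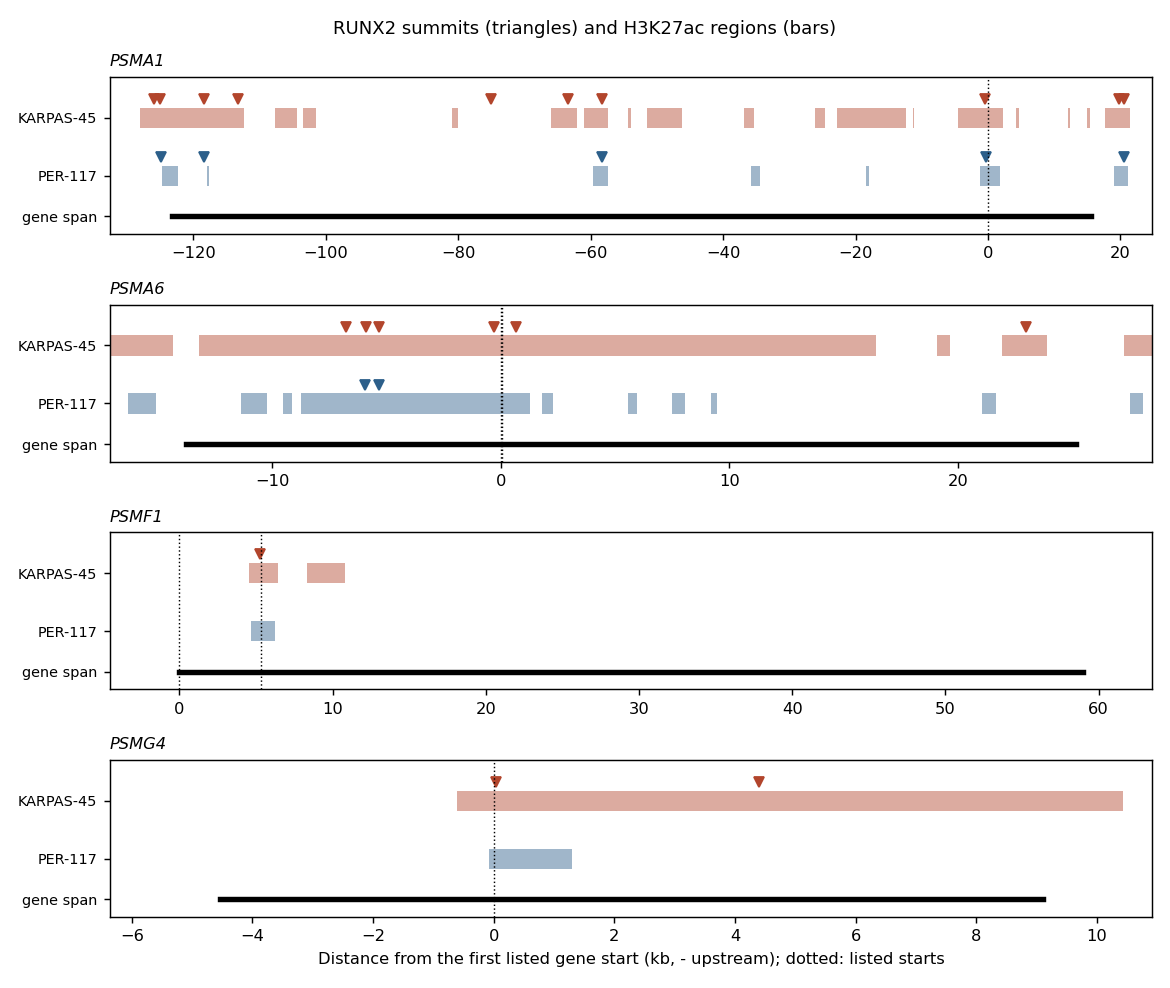
RUNX2 summits (triangles) and H3K27ac regions (bars) of KARPAS-45 (red) and PER-117 (blue) over the spans (black) of PSMA1, PSMA6, PSMF1 and PSMG4, in kb from the first listed start, with listed starts dotted and upstream to the left. In each gene H3K27ac of both lines covers an inner start, with RUNX2 there in both lines at PSMA1 and in KARPAS-45 only at PSMA6, PSMF1 and PSMG4.

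The widest H3K27ac region at a gene end had a median width of 3862 bp over 48 proteasome genes in KARPAS-45, with a range of 1450 to 29622 bp, against 3092 bp over all acetylated protein-coding genes. In PER-117 the median was 1875.5 bp over 46 genes, with a range of 770 to 6609 bp, against 1887 bp over all. The fold enrichment of the strongest H3K27ac region had medians of 2.33 for proteasome genes and 2.84 for all genes in KARPAS-45, and 6.62 and 6.61 in PER-117. The widest in KARPAS-45 were PSMA6, PSMA1 with 15823 bp and PSMD12 with 14719 bp, and in PER-117 PSMC4 with 6609 bp and PSME4 with 3715 bp. The PSMA1 region lay at the upstream edge of the span and not at its listed start. At that start the KARPAS-45 region was 6809 bp wide. The PSMA6 region of 10037 bp in PER-117 lies outside the gene-end window and is not counted here. The KARPAS-45 H3K27ac list covers 167 Mb and the PER-117 list 76.2 Mb, which moves with these widths, and the part of list coverage in them was not tested.

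**Figure D5:**
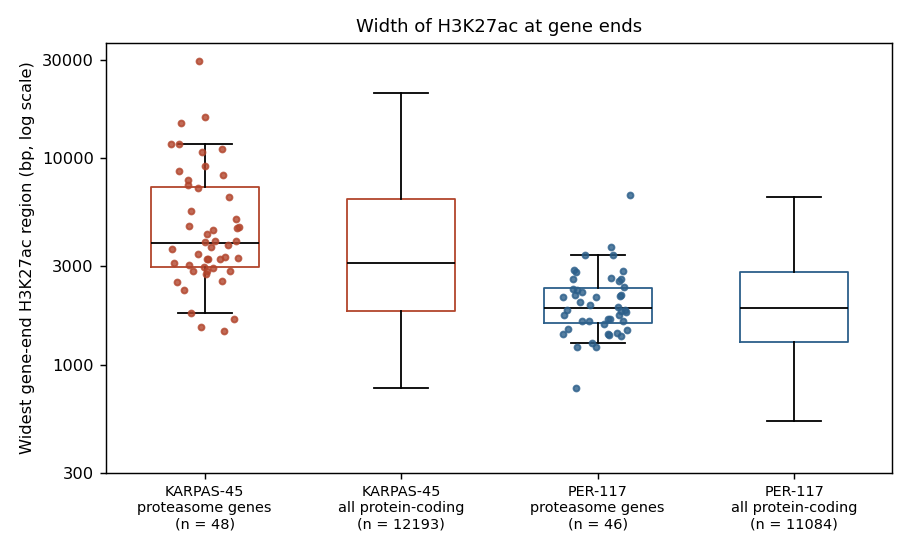
Width (bp, log axis) of the widest H3K27ac region at a gene end, for proteasome genes (points and box) and all acetylated protein-coding genes (box), in KARPAS-45 (red) and PER-117 (blue). Boxes span the quartiles with the median as a line, and whiskers the 5th to 95th percentile. Proteasome medians are 3862 bp and 1875.5 bp, and the single high KARPAS-45 point is PSMA6 at 29622 bp.

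A list of 27 further genes of the pathway holds subunits without such a symbol and ubiquitin, shuttle and regulator genes. RUNX2 was at a gene end of 20 of them in the KARPAS-45 library and 18 in PER-117, with 15 bound in both. All protein-coding genes had 48.3% and 32.5%, with 29.2% bound in both lines. H3K27ac was at 25 of 27 in KARPAS-45 and 27 of 27 in PER-117, where all had 61.0% and 55.5%. Nearly all of these genes were acetylated, so acetylated protein-coding genes are the closer comparison. Of those, 75.7% had RUNX2 in the KARPAS-45 list and 57.1% in the PER-117 list. An excess of the 27 genes over these shares was not tested. NFE2L1, the transcription factor that raises proteasome genes when the proteasome is blocked, had 25.4 in the KARPAS-45 list and 13.6 in PER-117, and UBQLN4, a shuttle for ubiquitinated proteins, had 17.5 and 13.7. UBQLN1, another shuttle, had 15.1 in KARPAS-45 and 8.87 in PER-117. ECPAS, TXNL1 and PITHD1 had RUNX2 in neither line. ADRM1 and SEM1, named here after their values were seen because they encode subunits of the cap, had 16.9 in KARPAS-45 and 3.19 in PER-117 for ADRM1, and no peak in KARPAS-45 and 3.71 in PER-117 for SEM1.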

How the data were processed

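RUNX2 and H3K27ac ChIP-seq peak lists of KARPAS-45 and PER-117 were analysed, 1 list per line and antibody, each called on a single library. The 3 inputs were left out. Per the submitters' processing notes, the build was hg38 and the tools were MACS2 and STAR 2.4.2a. What each tool did, and with which parameters, is not given in the sources used here. The authors deposited 10 columns per peak: a display score, a fold enrichment (a linear ratio), a −log10 p-value and a −log10 q-value, on which no further normalization was done. In the deposited H3K27ac lists column 10 is 100 throughout and was not read as a summit. Several summits of 1 deposited RUNX2 peak were joined, keeping the one of highest fold enrichment. The depth of the libraries is not known, so a peak that is not called sets no upper limit on binding.

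Genes, spans and promoters came from RefSeq (GRCh38.p14), with strand for the 44 genes matched in the promoter table. A gene counted as having a mark when an interval overlapped, by 1 bp or more, the window of 1 kb around either end of its span. Shares have Wilson 95% intervals, which cover counting error only. With 1 library per line and antibody no test was made. The gene set, its role classes, the marker list and the list of associated factors were chosen with earlier results of these data known. The ribosomal sets, the motifs other than the RUNX core and the description of inner starts were added after the values were seen.

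Full values were given for the 8 genes bound in both lines with the highest lower-of-both fold enrichment, up to 6 genes per line bound in that line only, genes without H3K27ac at a gene end, PSMA8, PSMB8 to PSMB11, and PSMG1 to PSMG4. Further genes were named to account for every one. Of the associated factors, the strongest in both lines and those bound in neither were named, and some genes this rule names are not reported here. Alternatives were windows of 2.5 kb and 500 bp, listed starts, the whole span, summits only, the 5000 strongest RUNX2 peaks, only RUNX2 peaks at or over a −log10 q of 10, lists of equal length, H3K27ac with a −log10 q of 2 or more, the wider 50% of H3K27ac regions, equal covered length, the nearest peak, and the TGTGGT core alone. Use of the other line's H3K27ac list was chosen after seeing the data. The overlap code was tested on simulated data. Computation used pandas 2.3.3 and numpy 2.4.6 under Python 3.11.15, intervals scipy 1.17.1, and figures matplotlib 3.10.9.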

Additional observations from a re-analysis of the deposited data

How the results depend on the processing

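Over 10 results and 65 alternatives, 51 values stayed within 1.5 times the reported count, the interval of a reported share or the middle 50% of the reported distances, and 14 moved. With −log10 q of 10 or more the share of acetylated proteasome genes with RUNX2 was 54.2% in the KARPAS-45 library and 28.3% in PER-117. All acetylated genes then had 47.4% and 30.3%. At this cut 13 of the 50 were bound in PER-117 (26%, against 17.2% of all genes) and 11 in both lines (22%, against 13.9%). With the 5000 strongest RUNX2 peaks the share of acetylated proteasome genes was 4.17% in the KARPAS-45 library and 8.70% in PER-117, from 2 and 4 genes. Bound in both lines was then 1 gene (2%, against 3.15% of all genes). Over all acetylated genes the shares with these peaks were 9.37% and 12.5% in KARPAS-45 and PER-117. With the KARPAS-45 RUNX2 list cut to the length of the PER-117 list it held 17 of the 50 genes (34%, against 27.6% of all genes). These were 35.4% of the acetylated ones, beside 43.6% of all acetylated genes. Under that cut 16 genes were bound in both lines (32%, against 20.0% of all genes). These lists have fewer peaks by construction. With whole gene spans the KARPAS-45 share was 87.8%, beside 85.1% of all acetylated genes. With the KARPAS-45 H3K27ac list cut, widest regions first, to the bases covered in PER-117, 14 genes stayed acetylated in KARPAS-45, beside 16.0% of all genes, and narrow regions are lost there by construction. With H3K27ac at −log10 q of 2 or more, 36 genes (72.0%) stayed acetylated in KARPAS-45, below the reported interval. The other windows, the summit-only rule, the wider 50% of regions, listed starts, the nearest peak and the TGTGGT core alone moved no count by over 1.5 times, and neither did the other line's H3K27ac list. No paired analysis was possible because each line and antibody has 1 library. The depth of the libraries is not known, and it limits every statement that a peak was not called.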
